A study of Mus musculus with 2 samples.

Results

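The genes described here are the kinases, transcription factors and feedback inhibitors of cytokine signalling: Jak1, Jak2, Jak3 and Tyk2, then Stat3, Stat5a and Stat5b, then Socs1, Socs3 and Cish. They were taken by gene symbol from the platform annotation, which gave 9 of the 10 listed genes out of 19505 genes in all. Jak3 was not analysed here. Each of the 9 had 1 probe set. Expression was measured on 2 arrays. One held RNA of innate lymphoid cell (ILC) progenitors with the genotype label Yeats4 knockout, from mice with a Yeats4 deletion, and the other RNA of wild-type progenitors from littermates. The cells were sorted as lineage-negative, CD127+ and α4β7+ cells of intermediate Sca-1 and c-Kit. Yeats4 encodes a reader of acetylated histones. The labels name no Cre driver, no age or sex and no number of mice.

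In this pathway a cytokine binds its receptor, the Janus kinases (JAKs) held on the receptor tails phosphorylate the receptor, and STAT factors dock there, are phosphorylated and move to the nucleus to activate genes. Among those genes are Cish and the SOCS genes, whose proteins bind the receptor or the kinase and shut the signal down. ILC progenitors depend on IL-7, whose receptor pairs CD127 with the common gamma chain and signals through Jak1, Jak3 and STAT5. The arrays read transcripts, so phosphorylation, the step that turns the pathway on, was not measured.

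Values are log2 expression after RMA, and a difference subtracts the wild-type value of a gene from its value on the array labelled knockout. Each genotype has 1 array, so no difference has a replicate check or a test. As a description of scatter, each difference is set beside those of the 500 genes nearest in mean level, with their median and their spread (scaled median absolute deviation). Genes were counted when the mean of the 2 arrays reached the median of all probe sets, 2.88, which 10881 genes and 8 of the 9 measured members did. Cish, at a mean of 2.74, lay just under it. The 95th percentile of the negative control probe sets was 4.73 on the array labelled knockout and 4.80 on the wild-type array, and a gene under 4.80 on both is called near background. The probe set of Yeats4 read 5.90 on the array labelled knockout and 5.96 on the wild-type array. The difference was -0.06, and 140 of its 500 nearest genes read lower. Where its probes lie relative to the deletion is not known here, so the value does not check the label.

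Socs3, a feedback inhibitor, had the lowest difference of the members, while the kinases and STAT factors stayed close to genes of like level. The other inhibitors, Socs1 and Cish, also read lower on the array labelled knockout, but both were near background, and with low values set to the negative control level the difference of Socs1 was 0, above that of Stat5b (-0.11). No member differed 2-fold in either direction. Among all genes past the level filter, 1.56% passed 2-fold upward and 0.781% downward. At 1.5-fold the count of members was again 0 in each direction as deposited, against 9.16% of all genes higher and 5.16% lower. Socs3 just missed that threshold, and it passed it downward after centring (-0.64), loess correction (-0.69) and quantile normalization (-0.67), where 7.43%, 6.15% and 6.12% of all genes did. Of the 8 members past the filter, 3 had a difference below 0, against 41.0% of all genes, and their median difference was 0.03 against 0.08 for all genes. Of the 7 members above the negative control level on both arrays, 2 had a difference below 0, against 33.1% of all such genes. As deposited 0 of the 7 were 1.5-fold lower, against 1.44% of such genes. Socs3 makes the count 1 after each of those rescalings, for which the share of such genes was not computed. Of all genes past 2-fold, 66.7% were higher as deposited and 51.0% after centring on the median. Because genes at the levels of the kinases and STATs were on balance higher on the array labelled knockout, with local medians between 0.10 and 0.20, the local comparison reads differently. There 7 of the 8 lay below the median of their 500 nearest genes, against 50.1% of all genes. The members are few and were chosen with earlier results of these arrays known.

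**Figure D1:**
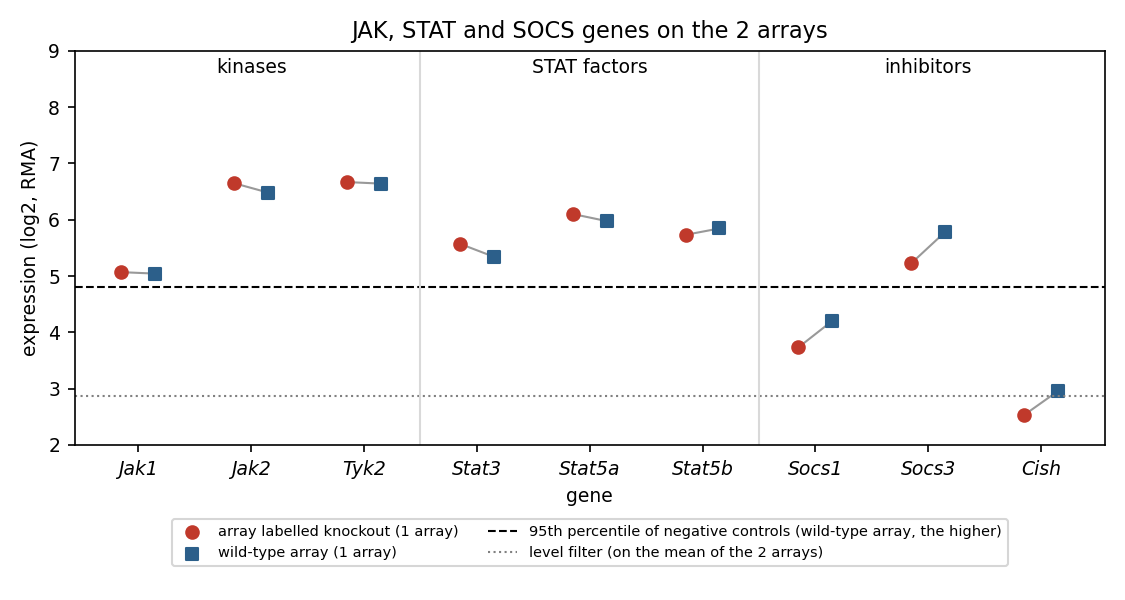
Log2 expression (y axis) of the 9 measured genes (x axis) on the array labelled knockout (circles, left of each pair) and the wild-type array (squares, right), 1 array each and so no error bars, with the negative control level of 4.80 dashed and the level filter of 2.88 dotted. Socs1, Socs3 and Cish read lower on the array labelled knockout, but Socs1 and Cish lie under the negative control level on both arrays.

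Socs3 carried the largest difference of the set, and it was the only inhibitor that both arrays measured above the negative control level. SOCS3 inhibits signalling through gp130 and related receptors, acting on the receptor and on JAK1, JAK2 and TYK2. Socs3 (Entrez gene 12702) read 5.23 on the array labelled knockout and 5.78 on the wild-type array, a difference of -0.56, which is 1.47-fold lower. The 500 nearest genes had a median of 0.12 and a spread of 0.36, and 16 of them read lower than Socs3. Its distance from the local median was -1.87 spreads, inside the central 95% of its neighbours, which ran from -0.61 to 0.79. Over all genes past the filter 5.80% had a difference as low, and 1.71% of the 5212 genes above the negative control level on both arrays did.

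Socs1 and Cish were near background on both arrays, so their differences are readings without a fold. SOCS1 blocks JAK kinase activity directly and restrains common gamma chain and interferon signals, and CIS, the product of Cish, is induced by STAT5 and restrains IL-2 family and IL-15 signals. Socs1 (Entrez gene 12703) read 3.73 on the array labelled knockout and 4.20 on the wild-type array, a difference of -0.47 with 69 of the 500 nearest genes lower. Cish (Entrez gene 12700) read 2.53 on the array labelled knockout and 2.96 on the wild-type array, a difference of -0.43 with 101 of the 500 nearest genes lower, here drawn from all genes because Cish lies under the filter. Both differences were about the size of the local spread, which was 0.47 for Socs1 and 0.42 for Cish. All 3 inhibitors had differences under those of the 6 measured kinases and STATs, but for Socs1 and Cish this order rests on values near background.

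Socs1, Socs3 and Cish are all induced through STAT sites, so the 250 bases before their annotated starts are shown (RefSeq, GRCm38.p6, 5′ to 3′ on the gene's strand). Capitals mark matches to TTCNNNGAA, the palindrome that STAT dimers bind, which reads alike on both strands.
Socs3, chr11:117969367-117969616, minus strand: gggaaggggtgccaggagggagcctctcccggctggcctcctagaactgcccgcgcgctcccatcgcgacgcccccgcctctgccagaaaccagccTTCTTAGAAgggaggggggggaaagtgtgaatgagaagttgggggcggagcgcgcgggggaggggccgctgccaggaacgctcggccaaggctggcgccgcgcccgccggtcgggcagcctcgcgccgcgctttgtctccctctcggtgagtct
Socs1, chr16:10785537-10785786, minus strand: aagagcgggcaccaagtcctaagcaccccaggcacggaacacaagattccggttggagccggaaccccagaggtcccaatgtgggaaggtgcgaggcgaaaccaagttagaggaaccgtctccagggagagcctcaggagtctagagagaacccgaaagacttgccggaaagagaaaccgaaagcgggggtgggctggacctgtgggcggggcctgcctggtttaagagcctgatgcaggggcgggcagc
Cish, chr9:107296409-107296658, plus strand: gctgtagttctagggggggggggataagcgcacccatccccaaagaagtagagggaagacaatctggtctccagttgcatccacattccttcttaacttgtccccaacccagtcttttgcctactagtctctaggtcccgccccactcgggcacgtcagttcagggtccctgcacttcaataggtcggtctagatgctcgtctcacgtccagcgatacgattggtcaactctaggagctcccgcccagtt
Socs3 held 1 match, whose first base lies 154 bases before the start. The windows of Socs1 and Cish held none, nor did those of the kinases and STATs, so 1 of the 10 listed genes had a match. In all promoter windows of this length in the table, 7.02% held the motif. None of the listed genes held the variant whose spacer is 1 base longer, which 5.85% of all windows did. A match is a run of letters, not a measured binding site, and these data hold no binding measurement.

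The 3 measured Janus kinases differed little between the arrays. JAK1 serves the common gamma chain, gp130 and interferon receptors, JAK2 the receptors of erythropoietin, thrombopoietin, IL-3 and GM-CSF, and TYK2 the interferon-α and IL-12 family receptors. Jak1 (Entrez gene 16451) read 5.07 on the array labelled knockout and 5.04 on the wild-type array, a difference of 0.03, and 220 of its 500 nearest genes were lower. Jak2 (Entrez gene 16452) read 6.65 on the array labelled knockout and 6.48 on the wild-type array, a difference of 0.17, with 228 lower. Tyk2 (Entrez gene 54721) read 6.67 on the array labelled knockout and 6.64 on the wild-type array, a difference of 0.03, with 153 lower. All 3 were above the negative control level on both arrays, and each lay within 1 local spread of the local median. The signs of Jak1 and Tyk2 turn negative after centring, loess correction or quantile normalization, so no direction is given for them.

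The STAT genes did not share a direction. STAT3 carries signals of IL-6, IL-21 and IL-23, and the near-identical pair STAT5A and STAT5B those of IL-7, IL-2 and IL-15. Stat3 (Entrez gene 20848) read 5.57 on the array labelled knockout and 5.34 on the wild-type array, a difference of 0.23, and 313 of its 500 nearest genes were lower. It was the only member above its local median, which was 0.12. Stat5a (Entrez gene 20850) read 6.10 on the array labelled knockout and 5.98 on the wild-type array, a difference of 0.13 that changes sign after loess correction or quantile normalization, with 237 lower. Stat5b (Entrez gene 20851) read 5.73 on the array labelled knockout and 5.84 on the wild-type array, a difference of -0.11 with 109 lower. These 3 genes follow one another on chromosome 11 with no other protein-coding gene between them in the reference table. Each lay within 1 local spread of its local median, so neither the higher reading of Stat3 nor the lower one of Stat5b stands out from genes of like level. Probe sequences were not used here, so binding of Stat5a transcripts to Stat5b probes, or the reverse, cannot be judged.

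**Figure D2:**
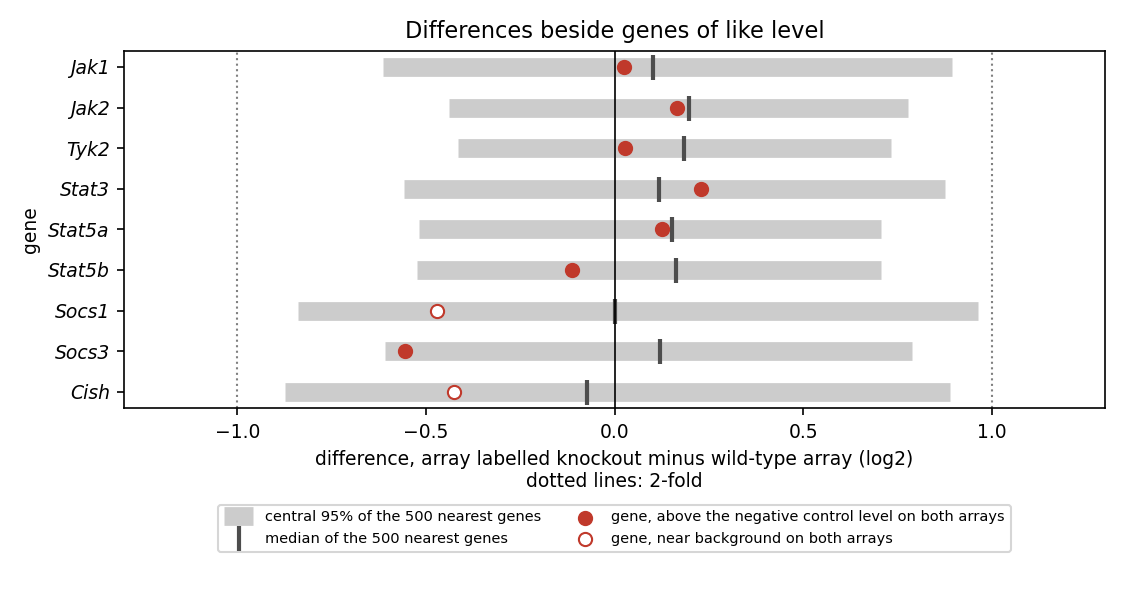
Difference (x axis, log2, array labelled knockout minus wild-type array) of each gene (y axis, points), over a grey bar for the central 95% of the 500 genes nearest in level and a tick for their median, with open points for genes near background on both arrays. All 9 points lie inside their bars, and Socs3 at -0.56 is the closest to an edge, at -0.61.

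The remaining STAT and SOCS genes read on both sides of 0. The other STATs compared were Stat6, which serves IL-4 and IL-13, at 0.18, Stat2, which serves type I interferon, at 0.13, and Stat4, which serves IL-12, at -0.11. Of the 5 other SOCS genes, 3 passed the filter. Socs4 read 4.86 on the array labelled knockout and 3.97 on the wild-type array, a difference of 0.89 with 16 of its 500 nearest genes higher. Since the wild-type reading was under the negative control level, the fold is at least 1.04. Socs2, a STAT5-induced inhibitor of growth hormone signalling, was near background at -0.23 and Socs7, also near background, at 0.03. SOCS proteins work as parts of a ubiquitin ligase with elongins B and C, Cullin-5 and Rbx2. The genes of these partners and of the associated ligase Arih2 all had differences above 0 as deposited. Of all genes past the filter 41.0% lay below 0, and 33.1% of those above the negative control level on both arrays. The median over the 5 partner genes was 0.33, with a median of 0.13 for their nearest genes. After centring, loess correction or quantile normalization 1 of the 5 lay below 0, and Rnf7, which encodes Rbx2, was at 0.04 as deposited. Eloc (elongin C) was at 0.56, Cul5 at 0.55, with its wild-type value under the negative control level, and Arih2 at 0.33.

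Upstream of the kinases, single receptor chains differed more than any member. Among the common gamma chain family, 6 of 9 listed genes were compared. As measured 1 was past 2-fold downward and 1, near background, past it upward, against 0.781% and 1.56% of all genes. The median of the 6 was 0.00, and it was -0.36 over the genes past the 75th percentile of level. Il2rb, the chain shared by the IL-2 and IL-15 receptors, read 6.01 on the array labelled knockout and 7.11 on the wild-type array, a difference of -1.09, and none of its 500 nearest genes was lower. Il7r, which encodes CD127, read 6.38 on the array labelled knockout and 7.07 on the wild-type array (-0.70, with 4 of 500 lower), and the sort selected on its protein. Il15ra, the gene past 2-fold upward, was near background on both arrays (1.18 as measured), and with low values set to the negative control level no gene of this family was 2-fold higher. The kinase and STAT genes that act below these chains, Jak1, Stat5a and Stat5b, each lay within 1 local spread of the local median. Outside that family, Csf2ra, the GM-CSF receptor alpha chain, read 6.74 on the array labelled knockout and 5.80 on the wild-type array (0.94, with 7 of 500 higher), while Csf2rb was at 0.21 and Il3ra at -0.10. Csf3r, the G-CSF receptor, was the only gene of the homodimeric receptors past the filter, at 0.50. The gp130 chain Il6st, chosen after its value was seen, was at 0.13, the IL-6 receptor Il6ra at 0.22, and Il27ra (-0.68) and Cntfr (-0.28) were near background. Interferon and IL-10 family receptors had a median of -0.01 over 6 genes, led by Ifngr1 at 0.29, Ifngr2 at 0.27 and Il10rb at -0.13. Il12rb1 (0.14) and Il12rb2 (-0.07) were near background.

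Other brakes on the pathway were mixed. Of 17 phosphatase, PIAS and adaptor genes, 8 had a difference below 0, against 41.0% of all genes. None was 2-fold different, where 1.56% of all genes were higher and 0.781% lower. The median was 0.10, which was -0.01 after loess correction. Cblb, a ubiquitin ligase that dampens lymphocyte activation, read 6.70 on the array labelled knockout and 7.26 on the wild-type array, a difference of -0.56 with 4 of its 500 nearest genes lower. Ptpn2, a phosphatase that dephosphorylates JAK1, JAK3 and STATs, read 6.45 on the array labelled knockout and 5.94 on the wild-type array, a difference of 0.51 with 61 of 500 higher. Pias3, an inhibitor of STAT3, was near background at -0.61. Relative to their neighbours Cblb stood further out than Socs3 and Ptpn2 less far.

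Among the genes listed as STAT targets, not all of which STATs switch on, none past the filter differed 2-fold. Of all genes 1.56% were 2-fold higher and 0.781% lower, so with so few targets this count says little. Of 18 STAT5 target genes compared, 11 had a difference below 0, against 41.0% of all genes. Their median was -0.15, against a median of 0.13 for their nearest genes. The median was 0 with low values set to the negative control level. The lowest were Lif (-0.65, near background), the ERK phosphatase gene Dusp6 and the cyclin gene Ccnd3. Dusp6 read 6.16 on the array labelled knockout and 6.76 on the wild-type array, a difference of -0.60 with 7 of 500 lower. Ccnd3 read 8.91 on the array labelled knockout and 9.40 on the wild-type array, a difference of -0.50 with 8 of 500 lower. Both genes also answer to other signals. Among targets chosen after their values were seen, the kinase gene Pim1 was at -0.03, the survival genes Mcl1 at -0.12 and Bcl2 at -0.19, and Myc at 0.46. Of 12 STAT3 targets 5 were below 0, near the 41.0% of all genes, and their median was 0.11 against 0.15 for their nearest genes and -0.02 after loess correction, with Fgl2 at 0.51, Fosl2 at -0.44 and Tnfrsf1a at 0.43. Socs2 and Il4ra each stand in 2 of the lists.

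The sorted samples were measured whole, so fewer cells of a type and less RNA per cell cannot be told apart, and T and B cells express SOCS genes and Il2rb too. Of the sort gate genes, Il7r, Kit (0.65), Itga4 (0.00) and Itgb7 (-0.14) were above the negative control level on both arrays. The 11 genes of ILC progenitors and the gate had a median of -0.35, and Thy1 (-1.66), Id2 (1.23) and Nfil3 (-0.93) differed more than any member. The sort for lineage-negative cells is meant to remove mature T, B and myeloid cells. As measured 9 of 14 T cell markers past the filter were 2-fold lower, against 0.781% of all genes. With low values set to the negative control level 5 were, against 23 of 10881 genes. Cd3e was at -2.10, and Cd8a, whose knockout reading was under that level, was at least 3.57-fold lower. The 1 T cell marker past the filter with a difference above 0 was Cd4 (0.09), above that level on both arrays. The summed linear level over 15 T cell markers was 338 on the array labelled knockout and 901 on the wild-type array. Summed B cell markers were 803 on the array labelled knockout and 1448 on the wild-type array, and eosinophil markers 702 on the array labelled knockout and 2002 on the wild-type array. Of all genes past the filter, 41.0% had a difference below 0. Of the 7 eosinophil markers past the filter, 5 had a difference below 0 and 2 above. Those above were Ccr3 (0.96, with its wild-type reading under the negative control level) and Siglecf (0.14, near background). Macrophage markers summed to 942 on the array labelled knockout and 611 on the wild-type array, with Axl at 1.14. NK cell markers summed to 753 on the array labelled knockout and 832 on the wild-type array, but the list was mixed. Of the 6 past the filter, 3 had a difference below 0 and 3 above, from Ccl5 at -1.78 to Nkg7 at 0.53, with a median of -0.39. As measured 2 of them were 2-fold lower, against 0.781% of all genes, and 1 with low values set to the negative control level. Neutrophil markers summed to 14714 on the array labelled knockout and 13589 on the wild-type array. All 12 were above the negative control level on both arrays. But 8 of the 12 had a difference below 0, against 33.1% of all such genes. The median of the 12 was -0.18, with Ltf at -0.55 and Ctsg at 0.72. Elane, which encodes neutrophil elastase and was 1 of the 4 above 0, was high on both arrays. It read 11.47 on the array labelled knockout and 11.14 on the wild-type array. Its level does not tell mature neutrophils from myeloid precursors. Of the 14 T cell markers past the filter, 3 were near background on both arrays and 4 were above the negative control level on both. Each of the rest had a knockout reading below that level and a wild-type reading above it. Among them were Cd3d (2.37 knockout, 5.28 wild type) and Cd8b1 (4.06 knockout, 6.64 wild type). The part of these cell types in the readings of Socs3, Il2rb, Il7r and Csf2ra was not tested.

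**Figure D3:**
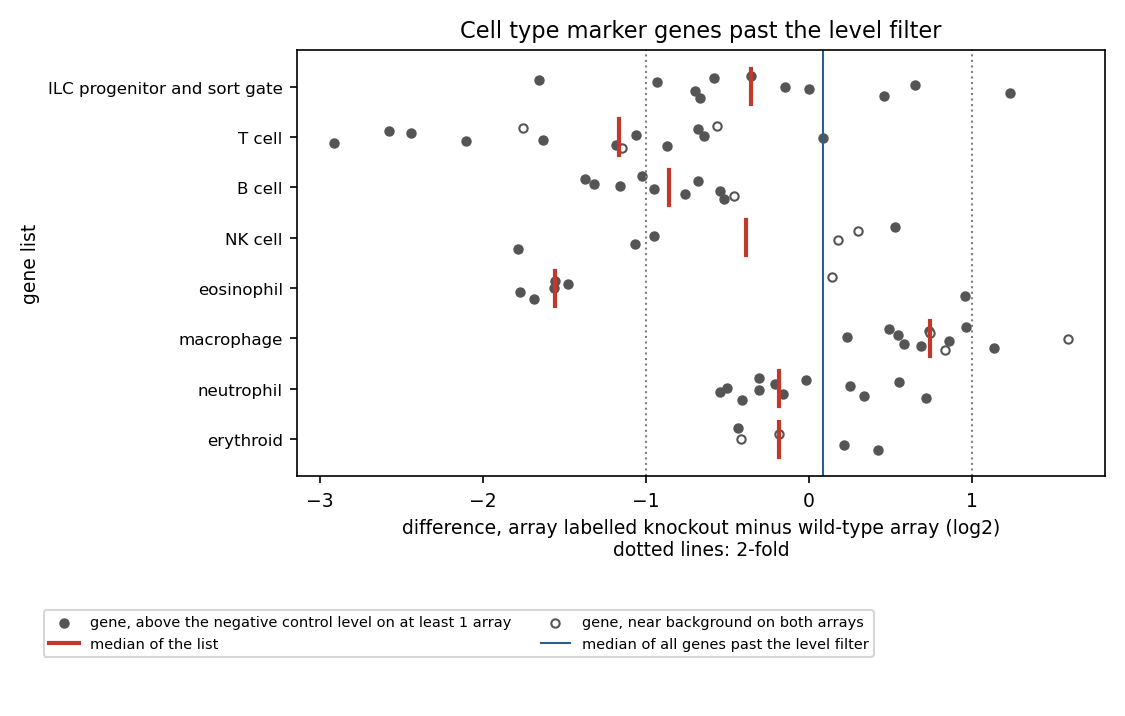
Differences (x axis, log2, array labelled knockout minus wild-type array) of cell type markers past the level filter (y axis, 1 point per gene, open where near background on both arrays), with each list's median in red and the median of all genes in blue. T cell (-1.17), B cell (-0.86) and eosinophil (-1.56) medians lie to the left and the macrophage median (0.74) to the right, all larger in size than the difference of Socs3 (-0.56).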

How the data were processed

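Expression in sorted mouse ILC progenitors was measured on 1 array labelled knockout and 1 wild-type array. Per the submitters' processing notes, the authors used Affymetrix Power Tools and RMA, so the deposited values are log2 expression after background correction, quantile normalization and summary of probes. Such values cannot show whether total RNA per cell changed. The design text names another Affymetrix mouse array than the platform annotation used for gene names. The genome build is not given in the sources used here, and no tool versions are.

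Of 29129 probe sets, 19572 had 1 gene symbol, giving 19505 genes, all found by gene identifier in the reference table (GRCm38.p6). The probe set of highest mean stood for a gene. Values were used as deposited. Levels on the 2 arrays had medians of 2.87 (labelled knockout) and 2.91 (wild type), and the number of arrays limits the precision. The members, the gene lists and the alternatives were chosen with earlier results of these data known. In each pathway list the 3 largest differences past the filter and any 2-fold difference were named. Up to 4 markers a list were named beside the sort gate genes, and not always those of largest difference. Calculations used Python 3.11.15, numpy 2.4.6, pandas 2.3.3, statsmodels 0.14.6 and matplotlib 3.10.9. The direction of a difference and the local spread were tested on simulated data. The planted differences there were of size 2 (log2), larger than that of any member, and the other steps were not simulated. The alternatives were other level filters, a floor at the negative control level, centring, loess (span 0.3), quantile normalization, the mean of probe sets, other thresholds and 200 or 1000 nearest genes, and, added after seeing the data, 1.5-fold with each filter, floor and scaling and raised low values for the marker counts. No test was run, since each genotype has 1 array. Listed genes not found in the annotation were not analysed here, and a further list of genes is not reported here.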

Additional observations from a re-analysis of the deposited data

How the results depend on the processing

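Under every alternative run, 0 members passed 2-fold upward and 0 downward, and 0 passed 3 local spreads, which was run on the deposited values. The share of all genes past 3 local spreads was not computed, so that last count has nothing to be read against. At 1.5-fold, run with each filter, floor and scaling after seeing the data, 0 were higher throughout, and 1 (Socs3) was lower after centring, 1 after loess correction, 1 after quantile normalization and 0 otherwise. The count of members below 0 was 3 of 8, and became 5 after centring on the median and 6 after loess correction and 6 after quantile normalization, all of which move the median of all genes from 0.08 to near 0. The median of the members was 0.03 and ran from -0.10 to 0.03. Socs3 stayed below 0 in all 8 alternatives, from -0.69 to -0.56, and Stat5b from -0.25 to -0.11, while Stat3 (0.10 to 0.23) and Jak2 (0.01 to 0.17) stayed above 0. Socs1 was at 0 where low values were set to the negative control level, and Cish could be compared only with no level filter. Over all genes, 170 were 2-fold higher and 85 lower. These counts were 19 and 23 where low values were set to that level and 35 and 25 at the 75th percentile filter. They were 38 and 25 at the negative control filter and 227 and 137 with no filter. The median of the common gamma chain list changed sign or became 0 in 7 of 8 alternatives, those of the gp130 family in 3 of 8, of the IL-12 and IL-23 receptors in 3 of 6, of the STAT3 targets and of the phosphatases, PIAS and adaptors in 2 of 8 each, of the other SOCS genes in 2 of 6 and of the STAT5 targets in 1 of 8. No paired analysis was possible because each genotype has 1 array, and a replicate could not be left out for the same reason. Near background the arrays set no order between genes.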

Other observations

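The STAT motif in the promoter window was set beside the differences of all genes. Of the genes past the filter with a window in the table, 541 held TTCNNNGAA at least once and 8327 did not, and both sets had a median difference of 0.09. Of those with a match 0.370% were at least 2-fold lower and 0.924% at least 2-fold higher, against 0.697% lower and 1.60% higher of those without. The 26 genes with 2 or more matches had a median of 0.26, and 15.4% of them lay below 0. That share was 40.6% without a match and 39.9% with 1 or more. With only 26 genes, no effect of the number of matches can be read from this. Socs3 is among the 541, with 1 match. The window covers only the bases next to the start.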
